A study of Mus musculus with 9 samples.

Results

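Sox9 and Sox8 of the SoxE group and Sox5 and Sox6 of the SoxD group were followed in Scx-GFP-positive cells of the mouse embryonic forelimb. These 4 genes, of 18193 genes on the arrays with a probe set of their own, were taken as members by symbol, with all 15 probe sets annotated to them (3 for Sox9, 1 for Sox8, 7 for Sox5 and 4 for Sox6) of 45101 on the array. A probe set is a group of short probes for one transcript, and its MAS5 signal, on a linear scale, is the value given here. The cells came from forelimbs of Scx-GFP embryos, in which green fluorescent protein reports the tendon gene Scx, collected at stage E11.5, E12.5 or E14.5, counted in days of gestation. Embryos of all 3 stages carried the reporter, and the GFP-positive fraction was sorted after trypsin dissociation. Each stage had 3 arrays, labelled A, B and C, 9 in all. No GFP-negative cells were analysed here, and the labels do not say how many embryos or litters an array holds, so p-values measure only how far these samples spread, which may be technical.

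SOX proteins are transcription factors that bind DNA through an HMG box. Sox9 is needed for mesenchymal cells to condense into cartilage and binds enhancers of cartilage matrix genes such as Col2a1 and Acan. Sox5 and Sox6 lack a transactivation domain of their own and act beside Sox9 in chondrocytes, while Sox8 is a close relative of Sox9 with overlapping functions in several tissues. Early progenitors that carry both Sox9 and Scx contribute to the attachment between tendon and cartilage. In bulk samples such as these, fewer cells of a type and less RNA per cell cannot be told apart.

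The arrays had median signals between 68.7 and 118, lowest on A and highest on C within each stage. Across genes, which do not replicate one another, any pair of arrays from 1 stage had an r of 0.950 to 0.982. Scx, the gene behind the sort, lay between 8692 and 21828 on all 9 arrays and fell from E11.5 to E14.5 (log2 -0.81 ± 0.22, limma adjusted p = 0.0164), the 1 tendon gene called as lower. That call was lost without E11.5 B or C or E14.5 A or B (highest adjusted p 0.0589). The Gapdh control probe sets, a check of RNA quality, had 3' to 5' signal ratios between 0.717 and 0.831. Those of the actin control lay between 1.27 and 1.53, again lowest on A and highest on C within each stage. The part of this order in the signals of the Sox genes was not tested. At E14.5 the 3 arrays stood apart from each other in cartilage genes: the mean log2 signal of 20 cartilage matrix genes was 12.15 on array A, 9.87 on B and 8.84 on C. At E12.5 that mean lay between 9.28 and 9.68. The E14.5 changes of the 4 Sox genes are therefore also given without array A, as are those of other genes that then lost their call or moved by over 1.5 times. Array A was also the highest E14.5 array in all 4 Sox genes, so leaving it out by itself lowers their E14.5 means.

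Stages were compared with limma in 1 fit of all genes, and a gene was called at a Benjamini-Hochberg adjusted p under 0.05. All 4 genes passed the filter on dim genes, and none was called between any pair of stages in the fit without the array letter. With the letter as a block, 1 was called between E12.5 and E14.5, Sox9. The shares of all tested genes that follow are for the fit without the letter. The share for the block fit is not given here, so the Sox9 call there has no background of its own. Over all alternative settings, the block among them, the genes called between E12.5 and E14.5 numbered from 1084 to 3091. Between E12.5 and E11.5, 3.55% of all tested genes were called, and 0 of the 4 had an unadjusted p under 0.05, against 16.0% of all tested genes. Between E14.5 and E12.5 the share of all tested genes called was 22.0%, and 3 of the 4 (Sox9, Sox8 and Sox5) had an unadjusted p under 0.05, as 35.9% of all tested genes did. Between E14.5 and E11.5 it was 40.5%, and 2 of the 4 (Sox9 and Sox8) had an unadjusted p under 0.05, against 49.0% of all tested genes. The 3 comparisons share arrays and are not independent of each other. The fit takes 1 spread per gene from the arrays of all 3 stages. A wide E14.5 group therefore also widens the interval between E11.5 and E12.5.

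Sox9 had similar signals at E11.5 and E12.5 and lower, widely spread signals at E14.5. Its brighter probe set, 1451538_at, read 2625, 2203 and 2404 on E11.5 arrays A, B and C, 3174, 2558 and 2802 on the E12.5 arrays, and 2435, 1211 and 582 on the E14.5 arrays. The E14.5 arrays lay below every E12.5 array, but E14.5 A lay within the range of E11.5. The stage means were 2411 ± 211 (SD, n = 3), 2845 ± 310 and 1409 ± 942, so that the order was E12.5, E11.5, E14.5. E12.5 and E11.5 were not called as different (log2 change 0.24 ± 0.41 SE, 95% interval -0.68 to 1.15, limma adjusted p = 0.840). That SE includes the wide spread of the E14.5 arrays. Within letters the early change was 0.274 for A, 0.215 for B and 0.221 for C.

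From E12.5 to E14.5 the log2 change of Sox9 was -1.24 ± 0.41 (95% interval -2.16 to -0.33), a ratio of 0.422, and limma's adjusted p = 0.0559 just missed the threshold. The letters were found to pair the arrays of these stages, and with the letter as a block Sox9 was called (adjusted p = 0.0353). Within letters the change was -0.38 for A, -1.08 for B and -2.27 for C, so all 3 went the same way. Without E14.5 A the change was -1.76 (adjusted p = 0.0048), and without E14.5 C it was -0.72 (adjusted p = 0.108). Between E14.5 and E11.5 the log2 change was -1.01 ± 0.41 (adjusted p = 0.0766), -1.52 without E14.5 A (adjusted p = 0.0040) and -0.49 without E14.5 C (adjusted p = 0.199).

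The next probe set of Sox9, 1424950_at, gave the same picture at a lower brightness. It read 2116, 1455 and 1695 at E11.5, 1996, 1804 and 1943 at E12.5, and 1584, 992 and 570 at E14.5. Both probe sets ranked the E14.5 arrays alike, with A highest and C lowest. The log2 gap between them averaged 0.45 with an SD of 0.21 over the 9 arrays and narrowed to 0.03 on E14.5 C. In the fit over probe sets the second one changed by -0.99 ± 0.32 from E12.5 to E14.5 (limma adjusted p = 0.0772, and 0.0427 with the letter as a block). The remaining probe set, 1433889_at, was not tested, with signals between 13.1 and 63.9, below the filter of 90.6.

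Sox8 was the member whose signal was higher at the last stage. Its probe set, 1435438_at, read 142, 207 and 157 on the E11.5 arrays, 170, 147 and 159 on the E12.5 arrays, and 353, 220 and 206 on the E14.5 arrays. Every E14.5 array lay above every E12.5 array, while E14.5 C (206.2) lay just below E11.5 B (206.9). The means were 169 ± 34.1 (SD, n = 3) at E11.5, 159 ± 11.8 at E12.5 and 260 ± 80.9 at E14.5. E11.5 and E12.5 overlapped and were not called as different (log2 change -0.07, 95% interval -0.57 to 0.43, limma adjusted p = 0.918).

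The log2 change of Sox8 from E12.5 to E14.5 was 0.67 ± 0.22 (95% interval 0.17 to 1.17; limma adjusted p = 0.0583), and from E11.5 to E14.5 it was 0.60 ± 0.22 (limma adjusted p = 0.0564). Without array E14.5 A the changes were 0.42 (adjusted p = 0.140) and 0.36 (adjusted p = 0.159). The direction was opposite to that of Sox9 in each of the 3 letters from E12.5 to E14.5, with Sox8 changes of 1.05 in A, 0.58 in B and 0.37 in C. After quantile normalization, which lowered the median change of all tested genes between E11.5 and E14.5 from 0.003 to -0.12, the Sox8 change over that span was 0.23 (adjusted p = 0.475).

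**Figure D1:**
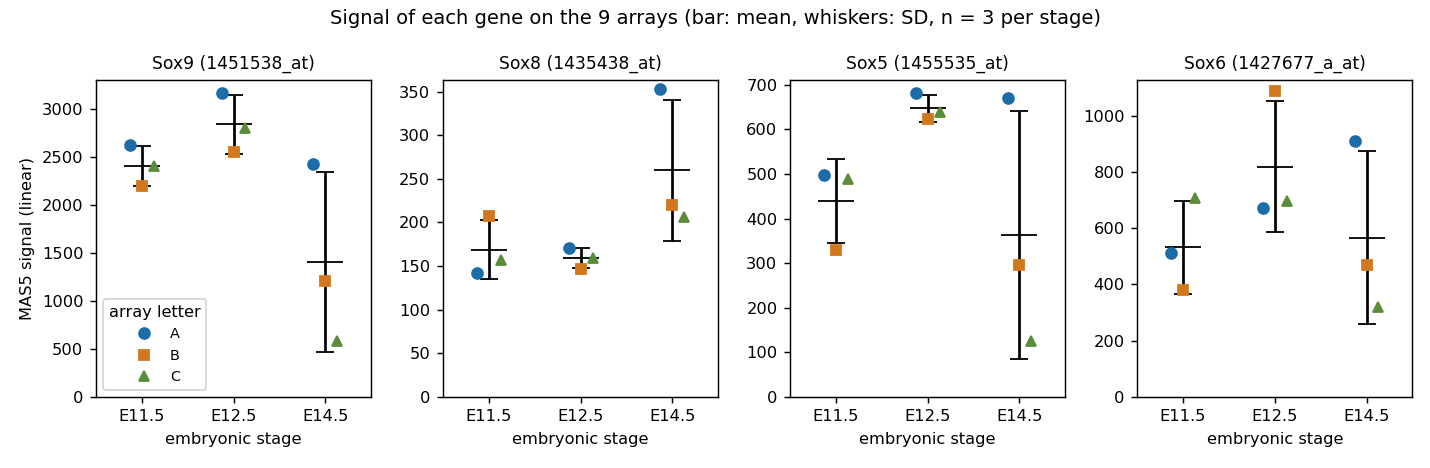
MAS5 signal (linear axis from 0) of the probe set that stands for each gene, by embryonic stage, with 1 point per array shaped and coloured by array letter; the horizontal bar is the mean and the whiskers the SD of 3 arrays. The E14.5 arrays of Sox9 run from 582 to 2435 and those of Sox5 from 125 to 670, with A highest and C lowest in all 4 genes.

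Sox5 was highest at E12.5 in most of its probe sets. The brightest, 1455535_at, read 498, 330 and 488 at E11.5, 682, 623 and 639 at E12.5, and 670, 297 and 125 at E14.5. All E12.5 arrays lay above all E11.5 arrays, whereas E14.5 A lay among the E12.5 arrays and E14.5 B and C below every array of both earlier stages. The order of the means was E12.5 (648 ± 30.3, SD, n = 3), E11.5 (439 ± 94.0) and E14.5 (364 ± 278). E11.5 and E14.5 were not called as different (log2 change -0.56 ± 0.48, limma adjusted p = 0.386).

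The log2 change of Sox5 was 0.59 ± 0.48 from E11.5 to E12.5 (95% interval -0.50 to 1.67; limma adjusted p = 0.619) and -1.15 ± 0.48 from E12.5 to E14.5 (95% interval -2.23 to -0.06; limma adjusted p = 0.119). Within letters the later change was -0.03 in A, -1.07 in B and -2.35 in C. Sox5 was called as lower at E14.5 when E14.5 A was left out (-1.75, adjusted p = 0.0114, against E12.5, and -1.16, adjusted p = 0.0275, against E11.5). Without E14.5 C the change against E12.5 was -0.54 (adjusted p = 0.296) and that against E11.5 was 0.05 (adjusted p = 0.926).

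Of the 7 probe sets of Sox5, 5 were tested, and all 5 were higher at E12.5 than at E11.5 (log2 changes between 0.43 and 0.59) and lower at E14.5 than at E12.5 (between -1.15 and -0.67). Probe set 1432189_a_at had tight early groups, with 210, 216 and 224 at E11.5 and 321, 316 and 311 at E12.5, and then 455, 75.2 and 87.4 at E14.5. There E14.5 A was the highest of the 9 arrays and E14.5 B and C the lowest pair. Its log2 change from E11.5 to E12.5 was 0.54 ± 0.57 (limma adjusted p = 0.771), with an SE that includes this E14.5 spread. Probe set 1423500_a_at read 328, 110 and 116 at E14.5, and 1440827_x_at, a kind of probe set that can bind related sequences, read 148, 61.7 and 52.9; with the letter as a block the latter was called from E12.5 to E14.5 (a ratio of 0.499, adjusted p = 0.0232). The dim 1452511_at went its own way at E14.5, with 52.0, 39.5 and 92.9 and C highest. The other 2, 1432190_at and 1459261_at, had signals from 2.71 to 54.2 and were not tested.

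Sox6 also had its highest mean at E12.5, but its probe sets differed in how far it came down by E14.5. The probe set that stood for the gene, 1427677_a_at, read 512, 379 and 707 at E11.5, 672, 1088 and 698 at E12.5, and 912, 468 and 321 at E14.5. The 3 stages overlapped, with means of 533 ± 165 (SD, n = 3), 819 ± 233 and 567 ± 308. Its log2 change was 0.63 ± 0.38 from E11.5 to E12.5 (limma adjusted p = 0.466), -0.63 ± 0.38 from E12.5 to E14.5 (limma adjusted p = 0.258) and 0.00 over the whole span (95% interval -0.85 to 0.85; without E14.5 A, -0.41, adjusted p = 0.340). Within letters the change from E12.5 to E14.5 was 0.44 in A, -1.22 in B and -1.12 in C. Without E14.5 A it was -1.04 (adjusted p = 0.0540), and without E14.5 C it was -0.29 (adjusted p = 0.620).

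The brightest probe set of Sox6, 1447655_x_at, was passed over because of its _x_at suffix. It read 665, 507 and 826 at E11.5, 952, 1235 and 1487 at E12.5, and 941, 539 and 298 at E14.5, so that every E12.5 array lay above every array of the other stages. Probe set 1434918_at read 499, 488 and 569, then 700, 907 and 1418, then 927, 308 and 238, and here E14.5 A overlapped E12.5. These 2 changed by -1.18 ± 0.39 and -1.24 ± 0.47 from E12.5 to E14.5 (limma adjusted p = 0.0772 and 0.113). The dim 1426018_a_at changed by -0.52 ± 0.43, with 156 on E14.5 A as its highest signal and 42.3 on E14.5 B as its lowest.

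**Figure D2:**
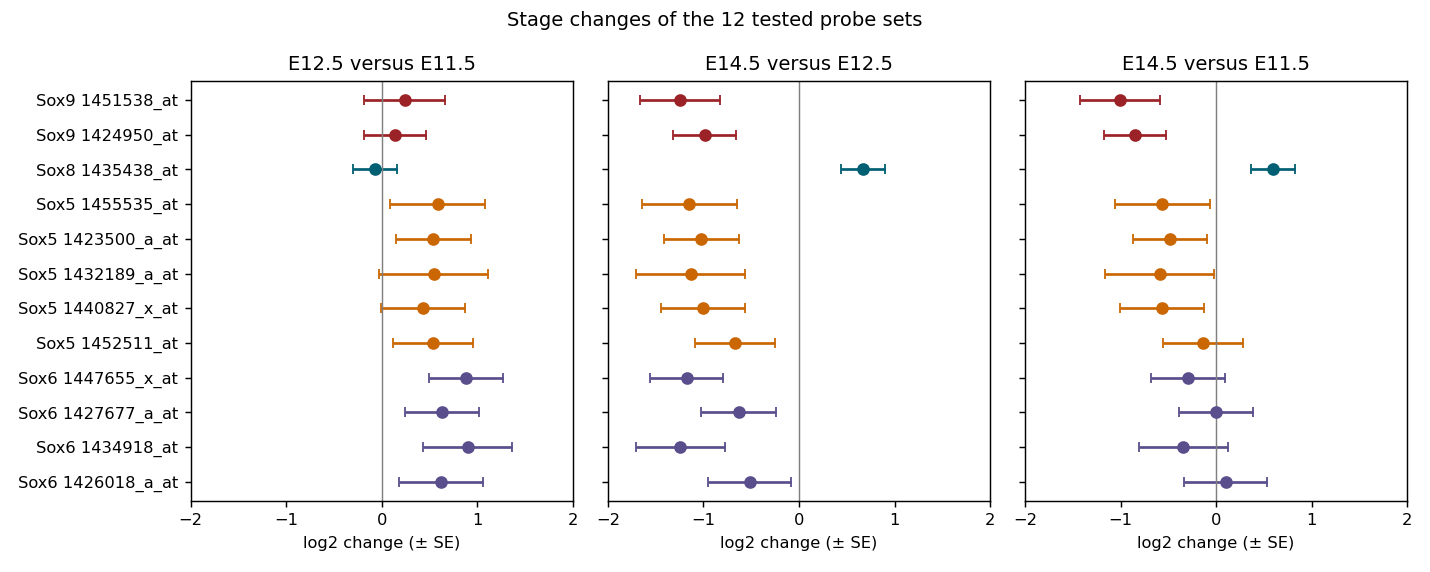
Log2 change with its standard error (x axis) of the 12 tested probe sets of Sox9, Sox8, Sox5 and Sox6 (rows, coloured by gene) in the 3 comparisons of stages. All 11 probe sets of Sox9, Sox5 and Sox6 lie above 0 from E11.5 to E12.5 and below 0 from E12.5 to E14.5, and the Sox8 probe set lies on the other side of 0 in both.

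Over the 12 tested probe sets, 11 were higher at E12.5 than at E11.5 and lower at E14.5 than at E12.5, and Sox8 alone went the other way. Probe sets of 1 gene share their RNA and are not replicates. In the fit over probe sets without the letter, 0 of the 12 were called in any comparison. Limma called 1.35% of all tested probe sets between E11.5 and E12.5 (282, and 440 with the letter as a block), 14.1% between E12.5 and E14.5 and 31.2% between E11.5 and E14.5. For the later comparisons the share with the block is not given here. Over all alternative settings, 897 to 3735 probe sets were called between E12.5 and E14.5. At an unadjusted p under 0.05 the numbers were 1, 8 and 3 of 12, against 2610, 6129 and 8722 of all 20885 tested. Without E14.5 A, 9 of the 12 were called as lower from E12.5 to E14.5, all of them of Sox9, Sox5 or Sox6. In that setting 3.17% of all tested probe sets were called as lower. Array E14.5 A was the highest E14.5 array in every tested probe set but Sox5 1452511_at, so leaving it out by itself lowers their E14.5 means. The count therefore does not test a fall of these genes. Without E14.5 C, 0 of the 12 and 2.75% of all were called as lower, with Sox9 1451538_at at -0.72 (adjusted p = 0.154).

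To show the upstream sequence of the SoxD pair, the bases just before the transcription starts of Sox5 and Sox6 are given. They come from the RefSeq promoter windows of mouse build GRCm38.p6, which hold 1 start of Sox5 and 6 of Sox6, of which the most upstream was taken. The 250 bases before the Sox5 start are chr6:143947107-143947356, and those of Sox6 are chr7:116038745-116038994, both on the minus strand. Capitals mark ACAAT, 1 form of the core that SOX proteins bind, searched on both strands. Other forms were not searched, so related letters such as ACAAAG in the Sox6 window are not marked or counted.
Sox5: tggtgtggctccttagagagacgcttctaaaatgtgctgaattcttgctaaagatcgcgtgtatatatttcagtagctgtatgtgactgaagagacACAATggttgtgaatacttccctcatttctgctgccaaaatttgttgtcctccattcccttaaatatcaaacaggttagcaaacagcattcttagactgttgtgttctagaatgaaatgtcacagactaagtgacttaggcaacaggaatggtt
Sox6: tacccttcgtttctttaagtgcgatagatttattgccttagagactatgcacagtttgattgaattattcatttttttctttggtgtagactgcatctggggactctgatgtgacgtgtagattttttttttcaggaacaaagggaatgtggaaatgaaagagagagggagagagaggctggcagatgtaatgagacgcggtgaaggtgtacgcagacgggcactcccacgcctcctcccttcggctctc
The form ACAAT occurs 1 time in the Sox5 window and 0 times in that of Sox6, and 27.7% of all 32851 promoter windows hold it in their 250 upstream bases. CANNTG, the E-box bound by bHLH factors such as the Scx protein, occurs 0 times in the Sox5 window and 2 times in that of Sox6, and 66.2% of all windows hold it. A match is a description of these letters and not a measured site.

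The spread of the E14.5 arrays followed 1 order in all 4 genes, with A highest and C lowest in the probe set that stood for each, as in 23.5% of all tested genes. Of the 12 tested probe sets 8 had this order, and 1452511_at of Sox5 had a ratio of A to C of 0.56. The E14.5 A signal exceeded the E14.5 C signal by a factor of 4.19 for Sox9, 1.71 for Sox8, 5.34 for Sox5 and 2.84 for Sox6, against a median of 1.03 and a 95th percentile of 1.77 over all tested genes. Of 20 tested cartilage matrix genes 17 had the same order. Acan, which encodes the cartilage proteoglycan aggrecan, read 5409, 554 and 185 on E14.5 A, B and C. Matn1, which encodes the cartilage protein matrilin-1, read 6529, 613 and 114, and Col2a1, which encodes the main collagen of cartilage, read 21311, 5150 and 3538. The A to C factor was 29.3 for Acan, 57.2 for Matn1, 6.02 for Col2a1 and 7.92 for Col9a1, each above that of any of the 4 Sox genes. The list as a whole did not lie above them. Papss2 and Col11a1 (3.299) had a smaller factor than Sox5, and Prg4 (1.448) and Col27a1 (1.303) a smaller one than Sox8. Of 15 tested tendon genes 4 had this order. The summed signal of all 22 cartilage matrix genes ran from 17825 to 22905 at E11.5, from 35615 to 43221 at E12.5 and from 20122 to 137040 at E14.5. The part of these cartilage signals in the stage changes of the Sox genes was not tested.

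**Figure D3:**
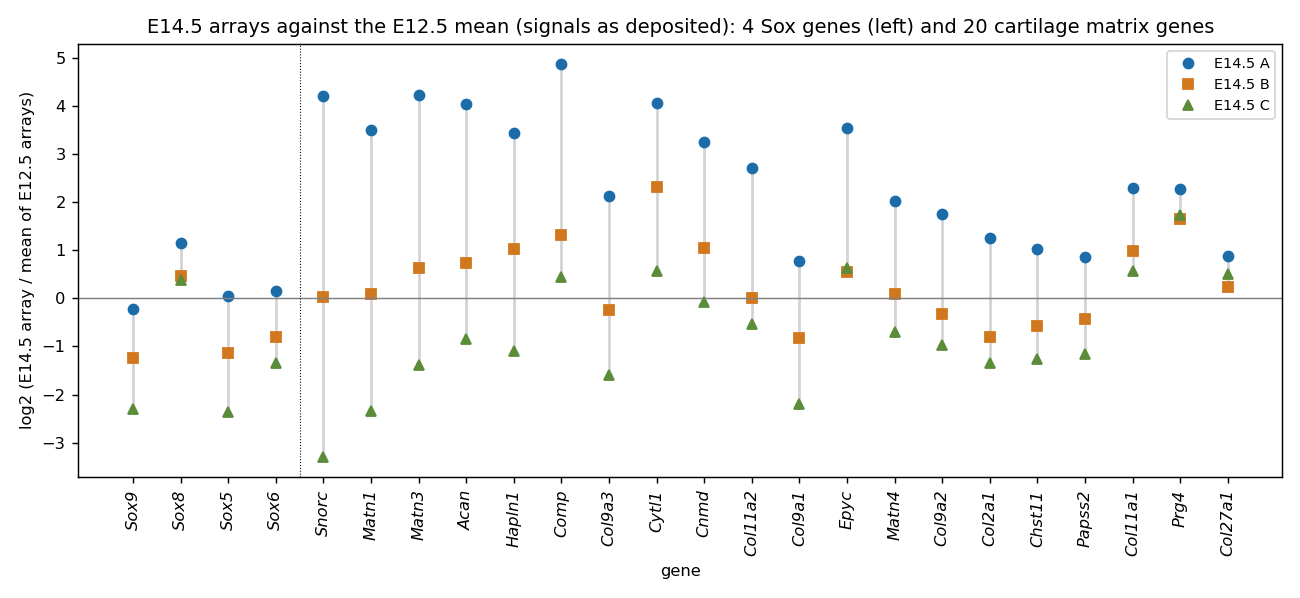
Log2 ratio of each E14.5 array (A, B and C, points) to the mean of the 3 E12.5 arrays, from signals as deposited, for the 4 Sox genes and the 20 tested cartilage matrix genes ordered by their ratio of E14.5 A to C; the grey lines span the 3 arrays. Array A is the highest of the 3 for every gene shown, and for Sox9 all 3 arrays lie below 0.

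Cartilage matrix genes, many of them targets of Sox9, had most of their calls between the outer stages in the fit without the letter. The number called early depended on the E14.5 arrays in the fit, as given below. Of the 20 tested, 1 rose from E11.5 to E12.5, 3 rose from E12.5 to E14.5 and 15 rose from E11.5 to E14.5, and none fell. Their median log2 changes were 1.48, 0.74 and 2.44, against 0.04, -0.05 and 0.00 over all tested genes, of which 3.11%, 12.6% and 22.9% were called as higher. Papss2, which encodes an enzyme that makes the sulfate donor for proteoglycans, was the 1 gene called from E11.5 to E12.5 in that fit. It rose from 453 ± 138 (SD, n = 3) to 2810 ± 374 (log2 2.67 ± 0.43, limma adjusted p = 0.0120). Its call was lost without E12.5 B (adjusted p = 0.0573) or E12.5 C (0.0571). Prg4, which encodes the joint lubricant lubricin, rose from E12.5 to E14.5 (1.94 ± 0.25, adjusted p = 8.5e-04). All its signals at E11.5 and E12.5 lay below the filter of 90.6, and with signals floored there the change was 0.54 (adjusted p = 0.0359). Also called as higher over that interval were Cytl1 (2.32 ± 0.69, adjusted p = 0.0388) and Col11a1 (1.31 ± 0.38, adjusted p = 0.0383), which encodes a collagen chain of cartilage fibrils. Cytl1 lost its call without any 1 of 7 arrays, all but E11.5 C and E14.5 C (highest adjusted p 0.104), and changed by 1.45 without E14.5 A (adjusted p = 0.0628). Col11a1 lost it without E11.5 A, any E12.5 array or E14.5 B (highest adjusted p 0.120) and with the letter as a block (adjusted p = 0.0501), and changed by 0.80 without E14.5 A (adjusted p = 0.0478). Without E14.5 A, 9 of the 20 rose from E11.5 to E12.5, 2 from E12.5 to E14.5 and 12 over the whole span, while 0, 3 and 1 fell. Without E14.5 C, 4, 6 and 17 rose and none fell. With only the 6 arrays of a comparison in the fit, 7 rose from E11.5 to E12.5. Over all alternative settings, all tested genes called as higher numbered 113 to 534, 785 to 1717 and 2116 to 2895 in the 3 comparisons. Those called as lower numbered 12 to 79, 299 to 1536 and 1260 to 2809. The share of all tested genes in each setting is not given here, so these counts test no change of the list.

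Col2a1 and Col9a1, which encodes a chain of a collagen that decorates cartilage fibrils, were not called in any comparison. Col2a1 read 5041, 5337 and 5720 at E11.5 and 8967, 7440 and 10564 at E12.5, so the early stages did not overlap (log2 change 0.73 ± 0.53, limma adjusted p = 0.562). Col9a1 read 8222, 7629 and 9601, then 11107, 11708 and 13157, and then 20584, 6732 and 2600 at E14.5. In both genes E14.5 A was the highest of the 9 arrays and E14.5 C the lowest.

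**Figure D4:**
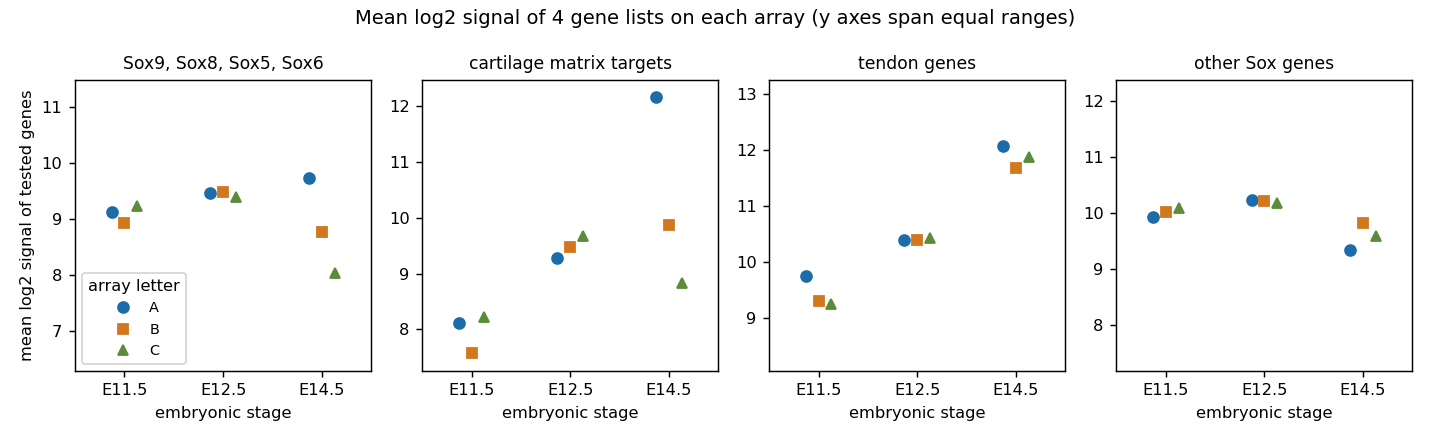
Mean log2 signal of the tested genes of 4 lists on each of the 9 arrays, by stage, with 1 point per array marked by its letter and y axes of equal span. The 4 Sox genes and the cartilage matrix genes fan out at E14.5, to 8.04 and 8.84 on array C and to 9.73 and 12.15 on array A, while the 15 tendon genes lie between 11.67 and 12.06.

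Genes that act before, beside or after the Sox factors were examined as further lists. Of 16 tested signals and regulators of chondrogenesis 1 rose and 1 fell from E11.5 to E12.5, and 2 rose and 1 fell from E12.5 to E14.5 and over the whole span. The shares of all tested genes called as higher were 3.11%, 12.6% and 22.9%, and as lower 0.441%, 9.32% and 17.7%, so these few calls lay close to or under the background at the later stages. Gdf5, which encodes a signal of the joint-forming region, rose from 343 ± 131 (SD, n = 3) to 1128 ± 212 at E12.5 (log2 1.78 ± 0.34, limma adjusted p = 0.0240), a call lost without any 1 of E11.5 A or B or of the 3 E12.5 arrays (highest adjusted p 0.104). Pax1 fell between the same stages (-1.26 ± 0.24, adjusted p = 0.0231) and rose again by E14.5 (1.12 ± 0.24, adjusted p = 0.0100). Its earlier call was lost without E11.5 A or B or E12.5 B or C (highest adjusted p 0.0919). Shox2, a homeobox gene of the proximal limb skeleton, fell from E12.5 to E14.5 (-1.09 ± 0.23, adjusted p = 0.0094) and Chrd, which encodes the BMP antagonist chordin, rose (1.21 ± 0.22, adjusted p = 0.0051).

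Among growth plate genes, of which 7 were tested, 1, 2 and 4 rose in the 3 comparisons in turn, against 3.11%, 12.6% and 22.9% of all tested genes, and none fell. Of 10 measured, 5 exceeded the filter on each E11.5 array, and 8, 6 and 6 did on E14.5 A, B and C. The counts against E11.5 therefore do not test a rise. Mef2c, a driver of chondrocyte hypertrophy that is also active in muscle, rose from 242 ± 21.9 (SD, n = 3) at E11.5 to 475 ± 39.1 at E12.5 and 919 ± 259 at E14.5 (log2 1.89 ± 0.20 over the whole span, limma adjusted p = 1.1e-04). Its call from E11.5 to E12.5 was lost without any 1 of 7 arrays, all but E14.5 A and C (highest adjusted p 0.132). Col10a1, the collagen gene of hypertrophic chondrocytes, was not tested, with stage means of 3.65, 11.1 and 19.5.

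Of 11 tested genes for partners and modifiers of Sox9, 0 were called by limma between E11.5 and E12.5 or between E12.5 and E14.5 (at an unadjusted p under 0.05 the counts were 0 and 2, Zfp219 and Ppargc1a, against 16.0% and 35.9% of all tested genes), and 3 fell over the whole span, against 17.7% of all tested genes. These were Zfp219, which encodes a zinc finger coactivator of Sox9 (log2 -1.18 ± 0.25, adjusted p = 0.0043), Med12, a Mediator subunit gene (-0.55 ± 0.17, adjusted p = 0.0270), and Kpnb1, an importin gene (-0.53 ± 0.15, adjusted p = 0.0171). The last 2 were lost when single arrays were left out, among them E11.5 B and E14.5 B for both, E11.5 C and E14.5 A for Med12 and E14.5 C for Kpnb1 (highest adjusted p 0.0880 and 0.0571). Wwp2, which encodes a ubiquitin ligase and hosts the cartilage microRNA miR-140, read 3119, 1602 and 2872 at E11.5, 3695, 2896 and 3739 at E12.5, and 4026, 1395 and 873 at E14.5, and was not called.

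Sox13 and Sox10 complete the SoxD and SoxE groups. Sox13, the remaining SoxD gene, read 262, 299 and 209 at E11.5, 192, 173 and 234 at E12.5 and 193, 124 and 144 at E14.5, and it fell over the whole span (log2 -0.75 ± 0.21, limma adjusted p = 0.0173). All E14.5 arrays lay below all E11.5 arrays, and the call was lost when E11.5 B or either of E14.5 B and C was left out (adjusted p up to 0.0620). Sox10, a SoxE gene of neural crest and glia, was dim, with signals of its 3 probe sets between 2.40 and 129, and its leading probe set did not pass the filter. Of 5 tested genes of the other Sox groups, the SoxC genes Sox11 and Sox12 fell at E14.5. Sox11 read 11399, 14331 and 11127 at E11.5, 9980, 9360 and 11415 at E12.5 and 4148, 5053 and 5019 at E14.5 (log2 -1.11 ± 0.15 from E12.5, adjusted p = 0.0012), and its groups at E12.5 and E14.5 lay far apart. Sox12 changed by -0.78 ± 0.16 over that interval (adjusted p = 0.0080), and by -0.29 (adjusted p = 0.192) when all its probe sets were averaged. Sox4, the other SoxC gene, was not called.

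Other cells that express these Sox genes were examined through their markers. The summed signal of 10 glial and neural crest markers ran from 1371 to 1578 at E11.5, from 1810 to 1903 at E12.5 and from 2282 to 2649 at E14.5; Foxd3 and Cdh19 exceeded the filter of 90.6 on none of the 9 arrays. Of 5 tested markers, S100b, a gene of glia and of chondrocytes, rose from E12.5 to E14.5 (log2 3.02 ± 0.42, limma adjusted p = 0.0012), reading 422, 144.5 and 192 at E14.5. Its earlier signals all lay below the filter, and floored there it changed by 1.33 (adjusted p = 0.0103). Ngfr also rose (0.83 ± 0.14, adjusted p = 0.0029), and Erbb3 fell (-0.72 ± 0.17, adjusted p = 0.0157), a call lost without E12.5 A or E14.5 C (highest adjusted p 0.0584). Over that interval 12.6% of all tested genes were called as higher and 9.32% as lower. The 18 skeletal muscle markers, a tissue in which Sox6 controls fibre type, summed to between 4294 and 7082 at E11.5, 7120 and 13565 at E12.5, and 10036 and 13347 at E14.5. The 7 osteoblast markers, of cells that arise beside cartilage, summed to between 810 and 929 at E12.5 and to 2954, 1840 and 761 on E14.5 A, B and C, the same order as the Sox genes. Of 4 tested, Alpl and Ifitm5 rose from E12.5 to E14.5, where 12.6% of all tested genes were called as higher. Floored at the filter, they changed by 1.23 (limma adjusted p = 0.0084) and 1.08 (0.0169). Of the 7 osteoblast markers, 2 exceeded the filter on each E12.5 array, and 6, 6 and 4 did on E14.5 A, B and C. Osteoblast markers thus passed the filter through later arrays, so their count does not test a rise. Endothelial markers summed to between 328 and 610 at E11.5 and between 1154 and 1525 at E14.5. Of 9 measured, 4 were tested (Cdh5, Kdr, Tek and Emcn). All 4 rose over that span, where 22.9% of all tested genes were called as higher. Kdr lost its call without E11.5 A or any E14.5 array (highest adjusted p 0.0823). At most 1 of the 9 exceeded the filter on an E11.5 array, and at least 4 did on each E14.5 array. Markers thus passed the filter through later arrays, so this count does not test a rise. Of 3 tested melanoblast markers, Mitf and Pmel rose over the span and Kit fell, where 22.9% of all tested genes were called as higher and 17.7% as lower. Pmel lost its call with the floor at the median signal (0.67, limma adjusted p = 0.121) and after quantile normalization (adjusted p = 0.0696). Kit lost its call without E11.5 B (adjusted p = 0.0511) and for the mean of its probe sets (-0.24, adjusted p = 0.305). The 7 measured melanoblast markers summed to 1308, 839 and 923 on E14.5 A, B and C. The part of any of these cells in the changes of the Sox genes was not tested.

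The genes whose log2 signals over the 9 arrays were most like each member were listed by Pearson's r, as a description of arrays that share 3 stages. For Sox5 they were Wwp2 (r = 0.968), Sox9 (0.949), Get3 (0.943), Col9a1 (0.942) and Ftsj1 (0.940). For Sox9 they were Pheta1 (0.988), Ube2s (0.974), Slc25a10 (0.970), Igbp1 (0.964) and Akirin2 (0.963), and Sox5 was ranked ninth of 11574 with r = 0.949. For Sox6 they were Tmem51 (0.957), Mrln (0.902), Bnip3 (0.896), Ypel2 (0.889) and Aff1 (0.889), with Sox5 at rank 10 (0.844), Col9a1 at rank 11 (0.839) and Sox9 at rank 142 (0.680). Sox8 was most like Adamts3 (0.981), Clint1 (0.979), Ddr1 (0.961), Mmp2 (0.959) and Bhlhe40 (0.955), and had r = -0.27 with Sox9, -0.15 with Sox5 and -0.05 with Sox6. Cartilage genes differed in this. Acan had r = 0.04 with Sox9 and 0.73 with Sox8 (rank 1008 of 11574), Hapln1 -0.02 and 0.65, and Matn1 0.20 and 0.51. Col9a1 had r = 0.86 with Sox9 and 0.16 with Sox8, and Col2a1 0.58 and 0.48.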

How the data were processed

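The deposited values are intensities, 1 MAS5 signal per probe set and array, which the submitters' processing notes credit to Expression Console 1.1 of Affymetrix; the genome build is not given in the sources used here. The mean of each array without its lowest and highest 2% of signals was 500, so the authors' scaling was kept. Of 45101 probe sets, 34945 had 1 gene symbol. For each of 18193 genes, the probe set of highest mean log2 signal was used, _x_at sets only where no other existed. Signals under 22.7 (the 25th percentile) were set to that floor, and genes above the median signal of 90.6 on at least 3 arrays were tested (11575 genes; 20885 probe sets in a second fit). limma 3.58.1 in R 4.3.3 fitted 1 mean per stage to all 9 arrays (6 residual degrees of freedom), with two-sided contrasts adjusted over all features by Benjamini-Hochberg; the fit was tested on simulated data. Means ± SD are of deposited signals, and log2 changes carry their SE. The number of arrays limits the precision.

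Letters A, B and C were checked as pairs by correlating deviations from stage means across tested genes. In the order A, B, C, E11.5 with E12.5 gave r of 0.520, 0.133 and 0.332. E12.5 with E14.5 gave 0.310, 0.121 and 0.289, and E11.5 with E14.5 gave 0.313, -0.005 and 0.238. The letters were taken to pair the arrays in the first 2 comparisons, where each r exceeded 0.1; what a letter stands for is unstated.

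The members, the 16 gene lists (189 genes, 175 measured, 123 tested) and the tests were chosen with earlier results of these data known. Named are the 4 members, Sox10 and Sox13, up to 4 called genes of a list with the largest changes in a comparison, and the 5 genes most like each member. Acan, Col2a1, Col9a1, Wwp2, Col10a1, Sox4, Scx, Foxd3 and Cdh19, where not called or below that rank, were named for their roles or after their values were seen. Alternatives varied the floor, filter, scaling, probe set, block, variance prior, array weights and arrays used.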

Additional observations from a re-analysis of the deposited data

How the results depend on the processing

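Over 240 alternative values for the 4 genes in the 3 comparisons, none reversed a call, 22 brought a gene past the threshold and 5 turned the sign of a change that was called in neither setting. For Sox9 from E12.5 to E14.5 the log2 change and limma's adjusted p were -1.24 and 0.0404 with the floor at the median signal, -1.27 and 0.0457 after quantile normalization, -1.26 and 0.0475 with median centring, -1.24 and 0.0353 with the letter as a replicate block, -1.67 and 0.0268 without the letter A arrays, -1.36 and 0.0125 with array weights, and -0.93 and 0.0450 for the mean of its probe sets. From E11.5 to E14.5 they were -1.01 and 0.0470 with the replicate block, where the letters did not meet the rule for pairs, -1.46 and 0.0188 without the letter A arrays, -1.19 and 0.0217 with weights and -0.87 and 0.0335 for the mean of probe sets. Sox8 was called with the higher floor (0.67 from E12.5 and 0.60 from E11.5, adjusted p 0.0452 and 0.0458) and, from E12.5, with weights (0.58, 0.0370). Sox5 was called from E12.5 to E14.5 without the letter A arrays (-1.71, 0.0464) and with weights (-1.32, 0.0278). The cause of these differences was not tested. The replicate block changed no other call of the 4 genes. Leaving out 1 array at a time, the change from E12.5 to E14.5 ranged from -1.76 to -0.72 for Sox9 and from -1.75 to -0.54 for Sox5. From E11.5 to E14.5 it ranged from -1.52 to -0.49 for Sox9, from 0.36 to 0.76 for Sox8 and from -1.16 to 0.05 for Sox5. Sox8 was called over that span without E11.5 B (0.76, adjusted p 0.0357) or E14.5 C (0.74, 0.0409).

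Genes called between E11.5 and E12.5 numbered 411, and 182 with no filter on dim genes, 218 after quantile normalization, 249 without the letter A arrays, 169 for means of probe sets and 125 to 486 with 1 array left out, lowest without E12.5 C. Between E12.5 and E14.5 the 2542 genes called became 1084 without the letter A arrays and 1564 to 2599 with 1 array left out, lowest without E12.5 A. Probe sets called between E11.5 and E12.5 numbered 282, and 114 with no filter, 186 after quantile normalization, 440 with the replicate block, 72 without the letter A arrays and 31 to 312 with 1 array left out, lowest without E12.5 B. Between E12.5 and E14.5 the 2947 probe sets became 897 without the letter A arrays and 1491 to 2899 with 1 array left out, and between E11.5 and E14.5 the 6521 became 3849 without the letter A arrays. Of 86 calls of list genes, 49 were lost under at least 1 alternative and none reversed; Prg4 was lost with no floor (adjusted p = 0.168) and Papss2 with no filter (0.0748). Signals near the floor, as of Sox10 and the dim probe sets, limit what can be measured there.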
